A study of Mus musculus with 46 samples.

Results

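The 10 genes described here are a chosen list of secreted factors that act on blood and lymph vessels, with 1 shared receptor: Vegfa, Vegfb, Vegfc, Pgf, Angpt1, Angpt2, Apln, Pdgfa, Pdgfb and Nrp1. They were found by symbol among the 24338 genes of a deposited expression table from mouse visceral adipose tissue, and all 10 were among the 15601 genes with enough signal to be tested (those reaching 0.5 FPKM in 5 or more libraries). FPKM is a level per gene length, the fragments counted on each kilobase after scaling for library depth. Mice given corticosterone (CORT), the main glucocorticoid of rodents, served as a model of Cushing's syndrome, the disease of glucocorticoid excess, and mice given vehicle (VEH) were the controls. RNA was sequenced in 4 groups of 5 libraries. CORT_5w is labelled as active disease at 5 weeks and CORT_15w as the recovered state at 15 weeks, and VEH_5w and VEH_15w are the vehicle groups of the same times. The dose, strain, sex and age of the animals are not given in the sources used here, so the groups are known by agent and time only. The labels do not say whether the libraries of a group came from separate animals, and p-values therefore measure the spread between these samples.

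Vessels grow and persist under several secreted signals. The VEGF family binds receptor kinases of endothelial cells: VEGF-A (Vegfa) acts mainly through VEGFR2 (Kdr) and also binds VEGFR1 (Flt1), VEGF-B (Vegfb) and placental growth factor (Pgf) bind VEGFR1, and VEGF-C (Vegfc) drives lymph vessel growth through VEGFR3 (Flt4). Neuropilin 1 (Nrp1) is a co-receptor for VEGF-A and for semaphorins. Angiopoietin 1 (Angpt1) activates the receptor Tie2 (Tek) and steadies vessels, whereas angiopoietin 2 (Angpt2) acts on the same receptor mostly as a context-dependent antagonist. Apelin (Apln), a peptide made by adipocytes and by sprouting endothelium, signals through Aplnr, and the PDGF chains made from Pdgfa and Pdgfb act on the receptors Pdgfra and Pdgfrb of mesenchymal cells and pericytes. In fat, the adipocyte is a known source of VEGF-A.

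The libraries held 25.1 to 42.6 M recovered reads (median 30.1 M). The adipocyte hormone gene Adipoq stood at 1641 to 4016 FPKM, so the labelled tissue carried its defining transcript in all 20 libraries. Transcripts of other tissues stood out in 7 libraries. Liver markers were high in CORT_5w replicate 2 (5 markers summed to 2667 FPKM, against a group median of 33.7 FPKM). Testis or epididymis markers were high in CORT_5w replicates 3 and 4, VEH_5w replicate 3, CORT_15w replicates 1 and 5 and VEH_15w replicate 5. They summed to at most 3583 FPKM over 6 markers, in the last of these. Each count of members is also given over the 13 libraries without these 7, which leaves 2 CORT and 4 VEH libraries at 5 weeks and 3 and 4 at 15 weeks. The part of the admixed transcripts in the results was not tested beyond that comparison. CORT_15w replicate 4, kept among the 13, stood apart in B and plasma cell markers (139 FPKM summed over 4 genes, against a group median of 11.4 FPKM) and held the highest Apln and Angpt1 of its group. Without it Apln was still called at 15 weeks (0.945, limma adjusted p = 0.00334) and Pdgfa was not (0.0585).

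At 5 weeks the growth factors moved in both directions. Vegfa, Vegfc and Pdgfb were lower in CORT, Angpt2 and Pdgfa were higher, and Vegfb, Pgf, Nrp1, Angpt1 and Apln did not pass the test. These calls, at an adjusted p below 0.05 by limma on log2(FPKM + 1) with Benjamini-Hochberg adjustment over all genes tested, cover 5 of 10 members. Of all genes tested, 43.8% were called at 5 weeks (22.3% higher, 21.5% lower), so the number of called members was close to the background and only the single genes carry a result. The median log2 fold change was -0.07 for the members and 0.01 for all genes tested. At 15 weeks 2 of 10 members were called, Apln and Pdgfa, both higher in CORT, against 10.6% of all genes (3.83% higher, 6.8% lower). The median log2 fold change was 0.12 for the members and 0.0033 for all genes. Without the 7 libraries, 3 members were called at 5 weeks (Angpt2, Pdgfa and Vegfa), against 28.2% of all genes. At 15 weeks 0 were then called by limma, against 0.955% of all genes, with 2 higher and 1 lower at an unadjusted p below 0.05.

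**Figure D1:**
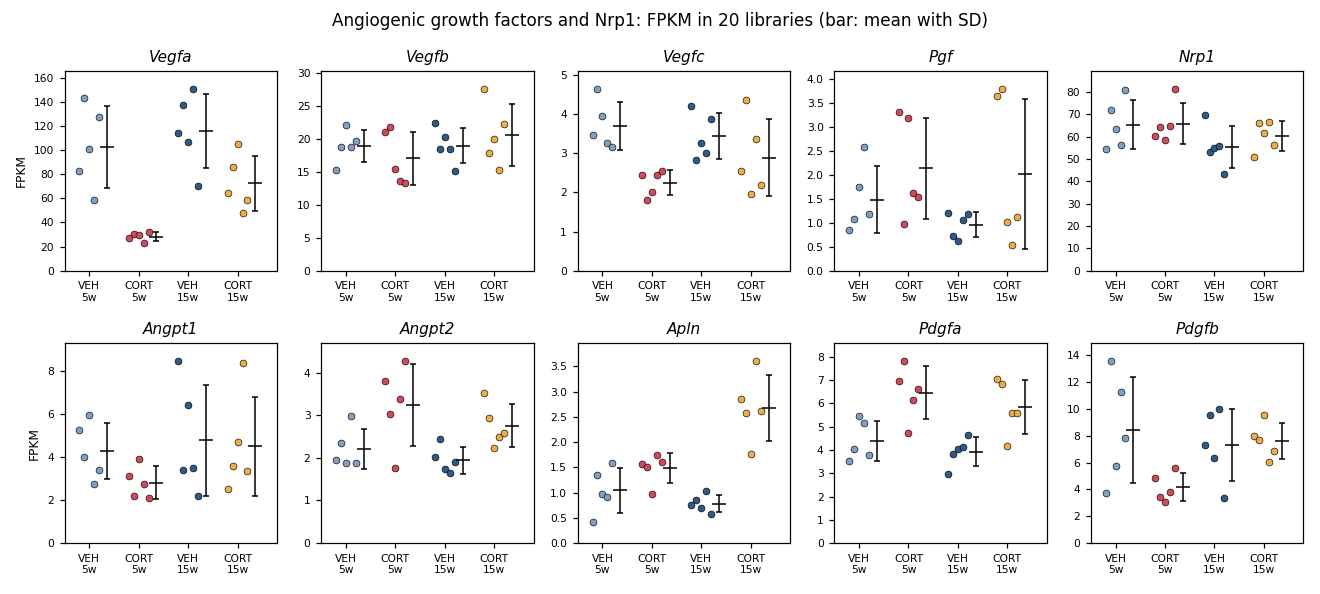
FPKM of the 10 members in each of the 20 libraries (points, 5 per group, replicates 1 to 5 from left to right) with the group mean and SD (bar beside the points), each panel on its own axis from 0. Vegfa lies at 23 to 32 FPKM in CORT_5w, below every library of the other groups, and Apln lies at 1.76 to 3.60 FPKM in CORT_15w, above every VEH_15w library.

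Vegfa was the most abundant member in all groups but CORT_5w, where Nrp1 stood higher, and it showed the largest log2 fold change of the 10 at 5 weeks. It stood at 82.4, 143, 101, 58.5 and 127 FPKM in replicates 1 to 5 of VEH_5w and at 26.8, 30.4, 29.7, 23 and 32 FPKM in those of CORT_5w. The groups did not overlap, and the CORT libraries spread far less than the VEH libraries (28.4 ± 3.56 FPKM against 102 ± 33.9, mean ± SD, n = 5). The mean was 3.61-fold lower in CORT, with a log2 fold change of -1.76 (SE 0.24, limma adjusted p = 1.67e-05). The call held when any single library was left out (adjusted p at most 8.76e-05) and without the 7 admixed libraries (-1.69). Each value rests on 3648 to 18126 recovered reads, so counting error is small beside the spread between libraries.

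At 15 weeks Vegfa stood at 114, 137, 107, 151 and 70.6 FPKM in VEH_15w and at 64.3, 86.0, 105, 47.6 and 58.9 FPKM in CORT_15w. The groups overlapped, and CORT_15w lay between the vehicle libraries and CORT_5w, whose highest library (32 FPKM) was below the lowest of CORT_15w (47.6 FPKM). The log2 fold change was -0.68 (SE 0.24, limma adjusted p = 0.0779) and did not pass the test, while the authors' deposited table gives -0.67 with an adjusted p of 0.0461. It passed when CORT_15w replicate 3 (adjusted p = 0.031) or VEH_15w replicate 5 (adjusted p = 0.030) was left out. The effect was smaller in size at 15 weeks than at 5 weeks by 1.08 on the log2 scale (SE 0.34, limma adjusted p = 0.0377 for the difference of the effects), a call that was lost without the 7 libraries (0.96, adjusted p = 0.264). It was also lost in 10 of 20 fits that left out 1 library (adjusted p from 0.0531 to 0.0748), namely CORT_5w replicate 2 or 4, VEH_5w replicate 2, 3 or 5, CORT_15w replicate 2 or 3, or VEH_15w replicate 1, 3 or 5.

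Vegfc, at a far lower level, was the other member whose groups did not overlap at 5 weeks. It stood at 3.47, 4.64, 3.95, 3.25 and 3.16 FPKM in VEH_5w and at 2.45, 1.80, 2.0, 2.43 and 2.55 FPKM in CORT_5w. Every CORT library was below every VEH library (log2 fold change -0.53, SE 0.14, limma adjusted p = 0.00585). These 2 of 10 members stand against 28.9% of all genes whose libraries did not overlap at 5 weeks. The Vegfc call held in all 10 fits that left out 1 library, but not without the 7 libraries (-0.39, adjusted p = 0.183). At 15 weeks the groups overlapped, with 3.44 ± 0.584 FPKM in VEH and 2.88 ± 0.982 FPKM in CORT (-0.22, SE 0.14, adjusted p = 0.366).

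Vegfb and Pgf, the ligands of VEGFR1, did not pass the test at either time. Vegfb was 18.9 ± 2.40 FPKM in VEH_5w and 17.01 ± 4.02 FPKM in CORT_5w (log2 fold change -0.16, SE 0.16, 95% interval -0.47 to 0.14, adjusted p = 0.437). The interval leaves no room for a change of the size seen for Vegfa. Pgf ranged from 0.843 to 2.58 FPKM in VEH_5w and from 0.982 to 3.32 FPKM in CORT_5w, and from 0.628 to 1.21 FPKM in VEH_15w and from 0.536 to 3.79 FPKM in CORT_15w. Its CORT libraries were split between high and low values at both times, and its intervals were wide (-0.27 to 0.89 at 5 weeks and -0.10 to 1.05 at 15 weeks).

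Nrp1, the co-receptor, was the most abundant member in CORT_5w (65.7 FPKM on average, against 28.4 FPKM for Vegfa) and came after Vegfa in the other groups. It stood at 54.5 to 80.9 FPKM in VEH_5w (median 63.5 FPKM) and at 58.5 to 81.2 FPKM in CORT_5w (median 64.1 FPKM). The log2 fold change was 0.01 (SE 0.13, 95% interval -0.24 to 0.27, adjusted p = 0.94). At 15 weeks it was 55.3 ± 9.35 FPKM in VEH and 60.2 ± 6.69 FPKM in CORT (0.13, SE 0.13, adjusted p = 0.574).

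With Vegfd, listed in the table under its older symbol Figf and added to the family after its values were seen, the 5 VEGF ligands can be set beside each other as levels per gene length. Their sum was 142 ± 34.6 FPKM in VEH_5w and 65.2 ± 7.44 FPKM in CORT_5w, and the groups did not overlap. Vegfa made up 70.6 ± 6.91% of this sum in VEH_5w and 43.7 ± 5.64% in CORT_5w. Vegfb and Figf, whose own levels did not pass the test (Figf 15.8 ± 3.21 and 15.5 ± 3.17 FPKM), made up 25.8 ± 3.49% and 23.7 ± 3.51% of the sum in CORT_5w, against 13.9 ± 3.70% and 11.6 ± 3.44% in VEH_5w. At 15 weeks the share of Vegfa was 74.1 ± 5.86% in VEH and 62.4 ± 8.95% in CORT. These shares are given as a description.

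**Figure D2:**
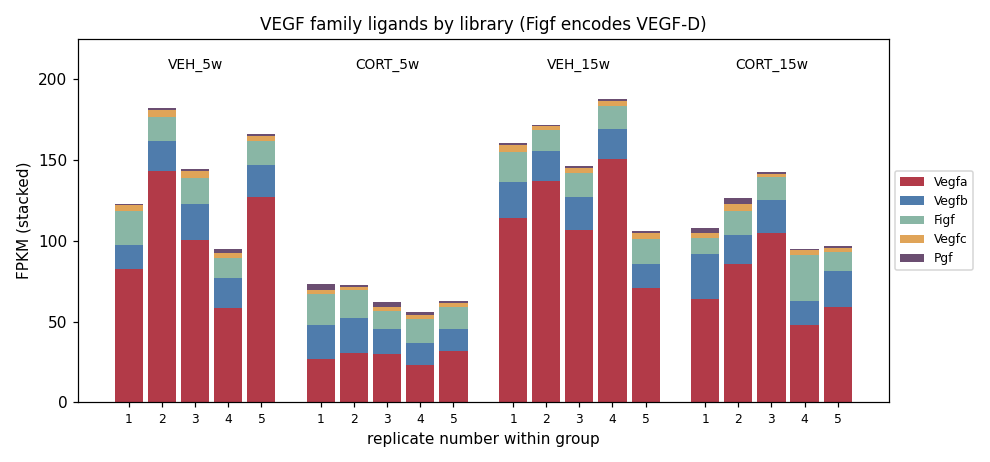
Stacked FPKM of the 5 VEGF family ligands in each of the 20 libraries, grouped by condition. The Vegfa segment is short in all 5 CORT_5w libraries (23 to 32 FPKM), while the Vegfb and Figf segments are of like height across the groups.

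The angiopoietins differed from each other in the sign of their fold changes at 5 weeks. Angpt2 stood at 1.96, 2.34, 1.88, 2.98 and 1.87 FPKM in VEH_5w and at 3.8, 3.02, 1.75, 3.37 and 4.27 FPKM in CORT_5w. All CORT libraries but replicate 3 were above every VEH library (log2 fold change 0.38, SE 0.15, limma adjusted p = 0.0443). The call lies at the threshold: it was lost in 8 of 10 fits that left out 1 library (highest adjusted p = 0.127, without CORT_5w replicate 5; kept without CORT_5w replicate 3 or VEH_5w replicate 4), with voom (0.113), with scaling by total reads (0.102), with no filter on low values (0.0703), with quantile normalization (0.0514) and in a fit of the 5-week libraries alone (0.0961), while it held without the 7 libraries (0.63). The authors' deposited table gives an adjusted p of 0.0616 for it.

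Angpt1 stood at 5.22, 4.0, 5.92, 2.76 and 3.40 FPKM in VEH_5w and at 3.11, 2.18, 3.92, 2.74 and 2.07 FPKM in CORT_5w. The groups overlapped, and the difference did not pass the test (-0.45, SE 0.28, 95% interval -1.0 to 0.09, limma adjusted p = 0.203); the authors' deposited table gives -0.61 with an adjusted p of 0.0453. The log2 ratio of Angpt2 to Angpt1, formed in each library after adding 1, was -0.69 ± 0.52 in VEH_5w and 0.15 ± 0.60 in CORT_5w. The difference of 0.84 had p = 0.0714 in a two-sided exact permutation test, whose smallest possible p with 5 against 5 libraries is 0.00794. When single libraries were left out, the exact p was 0.0159 without CORT_5w replicate 3, 0.0476 without VEH_5w replicate 4 and 0.0794 to 0.143 for each of the 8 others, and it was 0.133 without the 7 libraries. The difference in the ratio therefore did not pass the test.

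At 15 weeks Angpt2 was 1.95 ± 0.318 FPKM in VEH and 2.76 ± 0.502 FPKM in CORT. The log2 fold change of 0.35 (SE 0.15) was close to that at 5 weeks but did not pass the test (limma adjusted p = 0.145), while the authors' deposited table gives an adjusted p of 0.0308. Angpt1 spread widely in both groups, from 2.18 to 8.43 FPKM in VEH_15w and from 2.52 to 8.35 FPKM in CORT_15w (-0.05, SE 0.28). The difference in the log2 ratio was 0.39 (exact permutation p = 0.365, two-sided).

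Apln was the member called most firmly at 15 weeks. It stood at 0.757, 0.846, 0.695, 1.04 and 0.576 FPKM in VEH_15w and at 2.85, 2.57, 1.76, 3.60 and 2.61 FPKM in CORT_15w. The groups did not overlap, 1 of 10 members against 8.07% of all genes at that time, and the mean was 3.42-fold higher in CORT. The log2 fold change on the log2(FPKM + 1) scale, which understates changes of genes at so low a level, was 1.03 (SE 0.15, limma adjusted p = 0.00109). The call held in all 10 fits that left out 1 library and was just lost without the 7 libraries (0.96, adjusted p = 0.0508). The values rest on 58 to 390 recovered reads a library.

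At 5 weeks Apln stood at 0.415, 1.34, 0.964, 0.918 and 1.59 FPKM in VEH and at 1.57, 1.5, 0.977, 1.75 and 1.61 FPKM in CORT. The CORT libraries lay within or just above the upper part of the vehicle range, and the difference did not pass the test (0.30, SE 0.15, adjusted p = 0.123). The CORT effect was larger at 15 than at 5 weeks by 0.73 on the log2 scale (SE 0.22, limma adjusted p = 0.0279). With Vegfa, it made 2 of 10 members with a called difference between the effects, against 16.7% of all genes (6.57% higher, 10.1% lower). This balance depends on the scaling: 1025 genes were higher and 1575 lower as deposited, against 1782 and 938 with scaling by total reads and 1976 and 849 with voom, and both members were called higher in each of these fits. The Apln difference was lost without VEH_5w replicate 2 or 5 or VEH_15w replicate 3 (adjusted p from 0.0503 to 0.0559), and without the 7 libraries (0.60, adjusted p = 0.298).

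**Figure D3:**
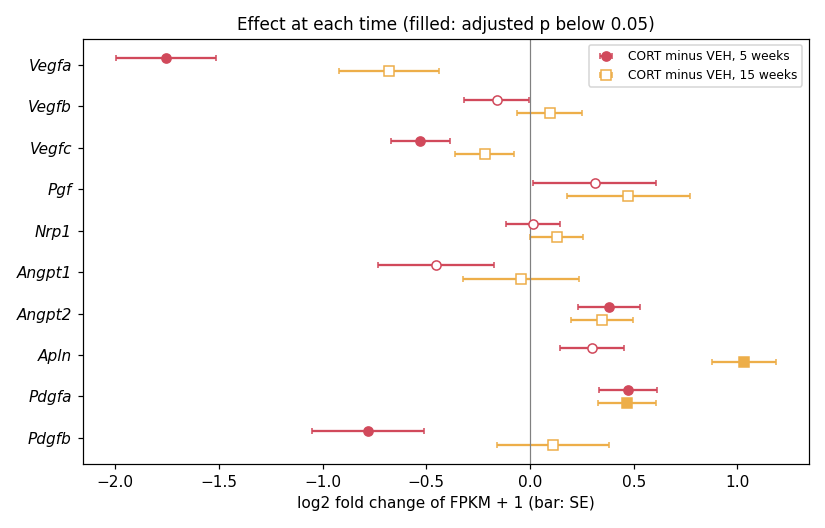
Log2 fold change of FPKM + 1, CORT against VEH, of each member at 5 weeks (circles) and 15 weeks (squares) with its SE; filled symbols have an adjusted p below 0.05. Vegfa is at -1.76 and -0.68, Apln at 0.30 and 1.03, and Pdgfa at 0.47 at both times.

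Pdgfa, whose product acts mainly on Pdgfra of mesenchymal progenitors, was called higher in CORT at both times. It stood at 3.53, 4.02, 5.44, 5.15 and 3.77 FPKM in VEH_5w and at 6.95, 7.82, 4.74, 6.15 and 6.64 FPKM in CORT_5w. All CORT libraries but replicate 3 were above every VEH library (0.47, SE 0.14, limma adjusted p = 0.0105), and the call held in all 10 fits that left out 1 library and without the 7 libraries (0.62). At 15 weeks it was 3.92 ± 0.615 FPKM in VEH and 5.85 ± 1.17 FPKM in CORT. The log2 fold change of 0.47 (SE 0.14) was like that at 5 weeks, but its adjusted p of 0.0385 by limma was lost in 8 of 10 fits that left out 1 library (up to 0.119, without CORT_15w replicate 1; kept without CORT_15w replicate 3 or VEH_15w replicate 5) and without the 7 libraries (0.149).

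Pdgfb, the endothelial PDGF that recruits pericytes, was lower in CORT at 5 weeks. It stood at 3.77, 13.6, 5.75, 11.2 and 7.84 FPKM in VEH_5w and at 4.84, 3.44, 3.08, 3.83 and 5.61 FPKM in CORT_5w. The vehicle libraries varied widely, and VEH_5w replicate 1 lay within the CORT range (-0.78, SE 0.27, limma adjusted p = 0.0252). The call was lost without CORT_5w replicate 2 (adjusted p = 0.056), CORT_5w replicate 3 (0.0585), VEH_5w replicate 2 (0.0845) or VEH_5w replicate 4 (0.0718), and without the 7 libraries (-0.58, adjusted p = 0.24). At 15 weeks the levels were 7.33 ± 2.70 FPKM in VEH and 7.63 ± 1.32 FPKM in CORT (0.11, SE 0.27, adjusted p = 0.844).

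Between the vehicle groups of the 2 times, limma called 0 of 10 members, against 0.0128% of all genes. At an unadjusted p below 0.05, limma also took 0 members, and voom on the recovered reads took 1, with 0 called after adjustment.

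The 3 members whose groups did not overlap at some time are shown by the 250 bases before their start site, from RefSeq, build GRCm38.p6, written 5′ to 3′ on the gene's strand; capitals mark GGGCGG (GC box) and CCAAT matches, on either strand. Windows were found for 7 of 10 members, and for Vegfa the start site at the gene's outer edge was taken.
Vegfa, chr17:46032378-46032627, minus strand: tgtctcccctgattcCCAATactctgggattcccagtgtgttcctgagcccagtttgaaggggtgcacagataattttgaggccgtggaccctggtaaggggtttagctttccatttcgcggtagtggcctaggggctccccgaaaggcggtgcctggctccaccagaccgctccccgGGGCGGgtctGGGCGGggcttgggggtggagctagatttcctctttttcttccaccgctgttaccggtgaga
Vegfc, chr8:54077282-54077531, plus strand: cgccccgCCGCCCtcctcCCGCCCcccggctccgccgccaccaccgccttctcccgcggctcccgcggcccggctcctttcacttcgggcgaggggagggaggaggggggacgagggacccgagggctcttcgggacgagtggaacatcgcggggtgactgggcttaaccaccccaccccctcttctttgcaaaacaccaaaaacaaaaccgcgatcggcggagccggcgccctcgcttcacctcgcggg
Apln, chrX:48034854-48035103, minus strand: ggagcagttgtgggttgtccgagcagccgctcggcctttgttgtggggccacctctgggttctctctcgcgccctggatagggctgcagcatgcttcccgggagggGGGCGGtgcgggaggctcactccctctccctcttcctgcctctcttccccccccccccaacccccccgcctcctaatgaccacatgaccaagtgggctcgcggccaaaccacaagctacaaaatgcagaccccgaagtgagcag
The search also covered ACGTG, the core of the hypoxia element, TGTTCT, the right part of the glucocorticoid receptor motif, and the whole inverted repeat bound by that receptor, with 3 free bases between its parts. The Vegfa window held 2 GC boxes and 1 CCAAT, the Vegfc window 2 GC boxes, and the Apln window 1 GC box, and none of the 3 windows held the other motifs. A second window of Vegfa, before an inner start site, held 1 ACGTG, 1 GC box and 1 CCAAT. Of 32851 windows of this length over all genes, 32.7% hold GGGCGG, 33.8% CCAAT, 16.6% ACGTG, 16.1% TGTTCT and 0.00913% the whole receptor motif. The share of G and C was 59.2% for Vegfa, 71.6% for Vegfc and 65.2% for Apln, against a median of 52.4% over all windows. No match says only that these letters are not in this window.

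The receptors of these factors were mostly lower in CORT at 5 weeks. Of 15 receptor genes on a list chosen with earlier results of these data known, 10 were lower, against 21.5% of all genes. Only Cxcr4, the receptor of Cxcl12, was higher (named after its values were seen), against 22.3% of all genes. The median log2 fold change of the 15 was -0.64, against 0.01 over all genes. Tek, the angiopoietin receptor, stood at 14.8 to 20.7 FPKM in VEH_5w and at 4.81 to 9.94 FPKM in CORT_5w (-1.26, SE 0.15, limma adjusted p = 3.52e-06). Kdr, the main receptor of VEGF-A, stood at 20.2 to 46.0 and at 11.3 to 17.7 FPKM (-1.10, SE 0.23, adjusted p = 0.000807). Neither overlapped between the groups. Flt1 (-1.10), Flt4 (-0.89), Tie1, the partner of Tie2 (-1.10), Pdgfra (-0.64) and Pdgfrb (-0.71) were also lower, and Nrp2, a co-receptor of VEGF-C, was not called (-0.17, SE 0.16). Without the 7 libraries 6 receptors were lower and 1 was higher, in a fit that called 28.2% of all genes.

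Markers of endothelial cells moved in the same direction. Of 12 endothelial markers, a list also chosen with earlier results known, 11 were lower at 5 weeks, against 21.5% of all genes. Without the 7 libraries 9 were lower, in a fit that called 28.2% of all genes. The median of the 12 markers with all libraries was -1.19. At 15 weeks limma called 0 of them, with 1 lower at an unadjusted p below 0.05, and voom called 0. Their summed level was 236 to 431 FPKM in VEH_5w and 111 to 171 FPKM in CORT_5w, and it was 187 to 394 FPKM in VEH_15w and 261 to 305 FPKM in CORT_15w. Pecam1, an adhesion molecule of endothelial junctions, stood at 49.9 to 80.1 FPKM in VEH_5w and at 19.4 to 30.2 FPKM in CORT_5w. In such bulk tissue, fewer endothelial cells and less RNA of these genes per cell cannot be told apart. The mean log2 fold change of the 12 markers was -1.12 at 5 weeks, and that of Vegfa was -1.76. Set relative to the marker mean of each library, Vegfa was at -0.64 (limma adjusted p = 0.0129), in a fit that called 90.4% of all genes. The value of -0.64 restates the gap between the 2 fold changes. The part of the endothelial markers in the levels of the growth factors was not tested.

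Markers of other cell types moved at 5 weeks as well, when 43.8% of all genes were called (22.3% higher, 21.5% lower). Without the 7 libraries 28.2% of all genes were called. Of 7 macrophage markers 4 were higher, 1 was lower and 2 were not called (4 higher and 0 lower without the 7 libraries). Their median log2 fold change was 0.80. The lipid-associated macrophage receptor Trem2 (2.63) and the lysosomal protein Cd68 (1.82) were among the higher, and Cd163 (-0.63) was the lower. The summed level of the macrophage markers was 498 to 953 FPKM in VEH_5w and 872 to 2363 FPKM in CORT_5w. Of 3 lymphatic markers tested, Lyve1 (0.895) and Pdpn (0.86) were higher, and Prox1, the transcription factor that defines lymphatic endothelium, was not called (-0.16). Among 8 mural markers, of pericytes and smooth muscle, 4 were lower and 2 higher (3 and 2 without the 7 libraries). The pericyte channel genes Kcnj8 (-1.62) and Abcc9 (-1.52) were lower, as was Rgs5 (-1.01), and Cspg4 (1.39) was higher. The smooth muscle actin Acta2 (1.60), named after its values were seen, was the other higher gene. The summed level of the mural markers was 105 to 185 FPKM in VEH_5w (median 123.5 FPKM) and 104 to 599 FPKM in CORT_5w (median 138.5 FPKM). The highest sum was in CORT_5w replicate 4, which is among the 7 libraries. Of the remaining lists, 1 of 8 adipocyte markers was higher, and of 7 progenitor markers 2 were higher and 1 lower. The adipocyte count depended on the scaling: total reads gave 1 higher and 4 lower, voom 2 and 4, and quantile normalization 1 and 1. These fits called 43.7%, 44.9% and 42.5% of all genes. Of 4 platelet markers 1 was higher, with a list median of -0.31. Limma called 0 of 4 mesothelial and 0 of 4 B and plasma cell markers. At an unadjusted p below 0.05 limma took 0 in either list, and voom took 1 and 2 lower, of which 0 were called. Of 5 liver markers 2 were higher, Alb (2.39) and Ttr (2.04), and 2 were also higher without the 7 libraries. Of 4 testis and epididymis markers limma called 0, with or without adjustment. The part of these cell types and tissues in the levels of the members was not tested.

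**Figure D4:**
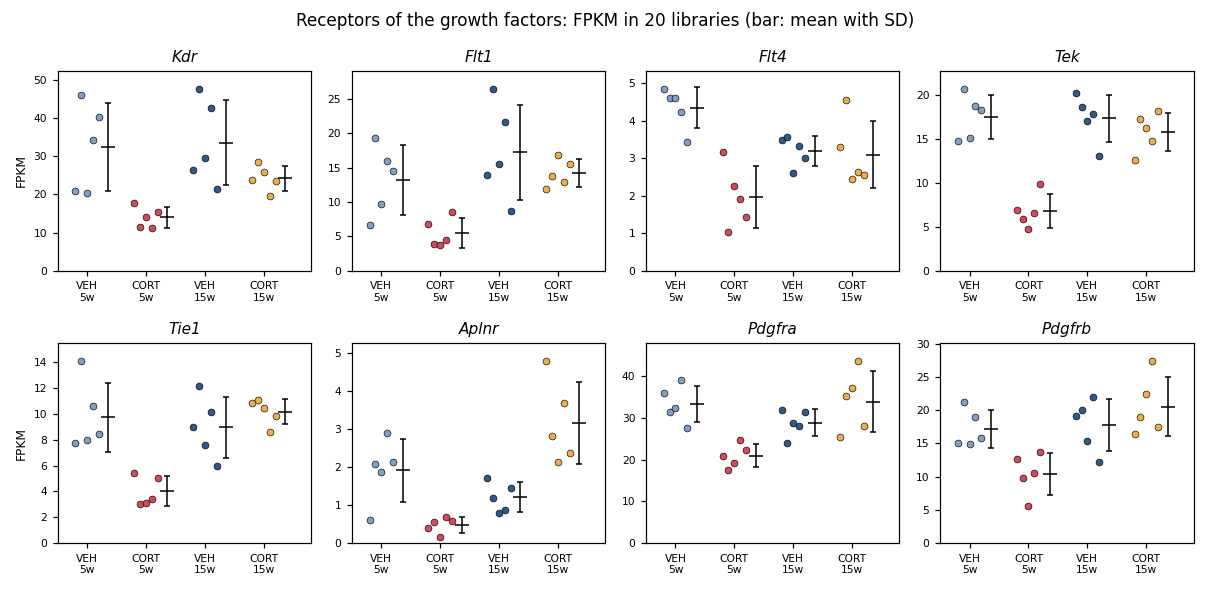
FPKM of 8 receptors in each of the 20 libraries (points) with group mean and SD (bar). Tek lies at 4.81 to 9.94 FPKM in CORT_5w against 14.8 to 20.7 FPKM in VEH_5w. The mean of Aplnr is lower than vehicle in CORT_5w and higher in CORT_15w.

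The apelin receptor changed sign between the times. Aplnr stood at 0.607, 2.08, 1.86, 2.88 and 2.14 FPKM in VEH_5w and at 0.400, 0.555, 0.150, 0.689 and 0.575 FPKM in CORT_5w (-0.94, SE 0.21, limma adjusted p = 0.00135). At 15 weeks it stood at 1.72, 1.18, 0.783, 0.863 and 1.44 FPKM in VEH and at 4.77, 2.80, 2.12, 3.69 and 2.37 FPKM in CORT (0.90, SE 0.21, adjusted p = 0.0121). Every CORT_15w library was above every VEH_15w library, as for its ligand Apln. At 5 weeks the groups overlapped, with VEH_5w replicate 1 within the CORT range. Adding 1 to the FPKM understates changes at so low a level, and the authors' deposited log2 fold changes are -2.02 at 5 weeks and 1.40 at 15 weeks. The difference of the effects was 1.84 (SE 0.29, limma adjusted p = 0.000761). At 15 weeks 10.6% of all genes were called (3.83% higher, 6.8% lower). Of the 15 receptors, 2 were then higher, Aplnr and the semaphorin receptor Plxnd1 (0.66, SE 0.20, limma adjusted p = 0.0448). By limma 0 of the receptors were lower, with or without adjustment. Without the 7 libraries 0 were called by limma, against 0.955% of all genes, with 3 higher and 2 lower at an unadjusted p below 0.05.

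The other angiogenic ligands also moved in both directions at 5 weeks. Of 11 genes 4 were higher and 3 were lower, against 22.3% and 21.5% of all genes, with a median of -0.03. Without the 7 libraries 2 were higher and 4 lower, in a fit that called 28.2% of all genes. Cxcl12, a chemokine that draws progenitor cells, was 26.4 ± 12 FPKM in VEH_5w and 6.01 ± 1.06 FPKM in CORT_5w (-1.87, SE 0.31, limma adjusted p = 9.55e-05). Adm, the vessel-widening peptide adrenomedullin (-1.25), and Pdgfd, a further PDGF (-0.80), were lower too. Fgf2, the basic fibroblast growth factor, rose from 5.86 ± 0.881 to 12.2 ± 2.69 FPKM (0.92, SE 0.17, adjusted p = 0.000300), and Hgf (0.87), Fgf1 (1.30) and Pdgfc (0.39) were higher, of which Fgf1 and Pdgfc were named after their values were seen. At 15 weeks only Hgf, the ligand of Met, was called of the 11 (0.54, SE 0.17, limma adjusted p = 0.045), against 10.6% of all genes. Without the 7 libraries 0 were called by limma, against 0.955% of all genes, with 2 higher at an unadjusted p below 0.05.

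At 5 weeks 21.5% of all genes were lower and 22.3% higher (28.2% were called without the 7 libraries). Of 8 genes of the Notch and ephrin pathways, which shape tips, stalks and arteries, 6 were then lower and 0 higher (3 and 0 without the 7 libraries). They included Ephb4, the venous ephrin receptor, which fell from 11.8 ± 3.38 to 4.60 ± 0.814 FPKM (-1.17, SE 0.17, limma adjusted p = 2.88e-05), Notch1 (-1.08) and its target Hey2 (-0.76). At 15 weeks 0 of 8 were called by limma or by voom, with 1 higher and 1 lower at an unadjusted p below 0.05 by limma. Among 9 genes that restrain vessels, 2 were higher and 4 lower at 5 weeks (2 and 2 without the 7 libraries). Serpinf1, which encodes the antiangiogenic PEDF, rose from 44.5 ± 10.5 to 160 ± 33.2 FPKM (1.83, SE 0.20, adjusted p = 2.13e-06), and Col18a1, the source of endostatin, rose as well (0.99). Timp3, a protease inhibitor that also blocks VEGFR2 (-0.75), and Sema3f (-0.57) were among the 4 that were lower. At 15 weeks Serpinf1 (0.78) and vasohibin, Vash1 (0.49), were higher, 2 of 9 against 10.6% of all genes. Without the 7 libraries limma called 0 of these 9 genes and 0.955% of all genes. At an unadjusted p below 0.05, 1 of the 9 was then higher and 1 lower.

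VEGF-A is a known target of hypoxia-inducible factors, and 14 genes of that response were tested. At 5 weeks 2 were higher and 3 lower, with a median of -0.09. The share called was below the 43.8% of all genes, so the list as a whole does not stand out. Without the 7 libraries 1 was higher and 3 lower, in a fit that called 28.2% of all genes. Epas1, the HIF-2 alpha subunit found in endothelium and adipocytes, fell from 86.9 ± 24.3 to 39.0 ± 10.5 FPKM (-1.13, SE 0.22, limma adjusted p = 0.00042). Arnt, the shared HIF partner (-0.97), and Bnip3, a HIF target of mitophagy (-1.29), were lower, and Vhl, which marks HIF for decay (0.92), and Hif1a (0.24, adjusted p = 0.0422, named after its values were seen) were higher. At 15 weeks Bnip3 (-1.06), Arnt (-0.47) and Pdk1, a mitochondrial kinase and HIF target (-0.36), were lower, 3 of 14 against 10.6% of all genes. Without the 7 libraries limma called 0 of the 14 and 0.955% of all genes. At an unadjusted p below 0.05, 1 of the 14 was then higher and 3 lower.

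Genes whose levels followed a called member most closely over the 20 libraries are given as a description, since the libraries share the 4 groups. For Vegfa these were Cep68 (Pearson r = 0.974, and 0.866 for deviations from the group means), Ptprm (0.959 and 0.822) and Zfp507 (0.957 and 0.769). For Pdgfb they were Shroom4 (0.955 and 0.940), Gpr4 (0.952 and 0.930) and Scarf1 (0.942 and 0.948). Angpt2 was followed by Gatsl2 (0.892), Specc1 and Traf3, Pdgfa by Nacc2 (0.891), Arhgef10 and Baiap2, Apln by Tspan18 (0.854), Zfp862-ps and Itpripl1, and Vegfc by Pi15 (0.809), Dancr and 5730480H06Rik. Since all these genes were picked for a high correlation over the same libraries, the coefficients within groups, which ran from 0.534 to 0.948 over the 6 members, are no separate result.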

How the data were processed

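Total RNA of mouse visceral fat was sequenced in 20 libraries. The authors deposited FPKM per gene symbol; the submitters' processing notes list TopHat, Bowtie and DESeq2 with mm9, with no role per file. Authors' values for the members (the authors' mean normalized signal, log2 fold change, its standard error as a score, and p-value) were copied from their tables. Within a gene, 100% of the 382438 FPKM values above 0 were whole multiples of a step (tolerance 0.05), which gave the reads; the step scaled with a median-ratio size factor, so the authors' FPKM carry that scaling. Groups were taken from titles.

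The test was limma 3.58.1 (R 4.3.3), two-sided, with an intensity trend; log2 values after adding 1 to the FPKM entered a single fit of 4 group means over the 20 libraries. Contrasts were CORT minus VEH at each time, their difference, and VEH at 15 minus 5 weeks. The 95% intervals are the estimate ± 1.96 SE, from a normal quantile, and so are somewhat narrower than the test itself implies. All members were described; of each list at most 4 called genes of smallest adjusted p per contrast and the members' receptors were named, and the 3 genes of highest correlation with each called member. The members and lists were chosen with earlier results of these data known. The model was run on simulated counts with a single setting of the spread for all genes and no admixed libraries. That run does not cover the unequal spreads of these data. Alternatives were another pseudocount (0.1), no filter, other scalings, voom, replicate block, single time points, left-out libraries and the endothelial marker mean as reference. The ChIP-seq files were not used here, since no mm9 annotation was at hand. Promoter windows came from RefSeq (GRCm38.p6). The macrophage marker Emr1 was not found under that symbol.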

Additional observations from a re-analysis of the deposited data

Results flagged for a closer look

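The CORT effect on Vegfa was smaller in size at 15 than at 5 weeks, by 1.08 on the log2 scale (1.076 before rounding, limma adjusted p = 0.0377). The effect on Apln was larger at 15 than at 5 weeks, by 0.73 (limma adjusted p = 0.0279). Nrp1 in CORT_5w replicate 5 stood at 81.2 FPKM while replicates 1 to 4 held 58.5 to 64.6 FPKM, and this gap was 0.732 of the group's whole range, above the critical value of 0.71 for 5 samples. Of 40 groups of 5 libraries tested in this way 1 was flagged, and chance flags about 1 in 20.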

How the results depend on the processing

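Shares of all genes called stand in brackets. Of 10 members, 5 were called at 5 weeks (43.8%). With total-read scaling (43.7%), quantile normalization (42.5%), voom (44.9%), the time point alone (42.6%) or no filter (30.3%), 4 were called, without Angpt2. Without the 7 admixed libraries 3 were called (28.2%), and relative to the endothelial marker mean 8 (7 higher, 1 lower, 90.4%). When single libraries were left out, 3 to 4 were called (38.3% to 44.3%). At 15 weeks 2 were called (10.6%). With no filter (6.07%), in the replicate block (8.5%), in the time point alone (5.82%) or relative to the endothelial mean (0.59%), 1 was called. The count was 0 without the 7 libraries (0.955%), and 1 to 3 when single libraries were left out (4.47% to 12.9%). For the difference between the effects 2 were called (16.7%), and 1 with a pseudocount of 0.1 (16.9%), no filter (9.81%) or quantile normalization (13.3%). Without the 7 libraries 0 were called (4.59%), and relative to the endothelial mean 5 (all lower, 79%). When single libraries were left out, 0 to 3 were called (11.3% to 20.9%). The cause was not tested.

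Setting values relative to the endothelial mean takes its own log2 fold change off every gene alike (-1.12 at 5 weeks, 1.102 in the difference of effects). The following turns of sign come from that constant and say nothing about the members. The counts called also depend on the spread between libraries, which this setting changed. At 15 weeks, where the constant was -0.0139, it called 0.59% of all genes, against 10.6% in the main fit. The sign turned at 5 weeks for Vegfb (0.955), Vegfc (0.59), Angpt1 (0.66) and Pdgfb (0.33), and in the difference for Vegfa (-0.026), Vegfb (-0.85), Vegfc (-0.79), Pgf (-0.94), Nrp1 (-0.99), Angpt1 (-0.69), Apln (-0.37) and Pdgfb (-0.21). Quantile normalization turned Nrp1 at 5 weeks (-0.23), and the fit without the 7 libraries turned Vegfb at 15 weeks (-0.17) and in the difference (-0.066). Sign changes of uncalled values by less than their SE were not counted. The log2 ratio of Angpt2 to Angpt1 at 5 weeks ran from 0.678 to 1.082 when single libraries were left out.

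Same-numbered libraries of CORT and VEH deviated with correlations of -0.476 to 0.293 at 5 weeks and -0.436 to 0.365 at 15 weeks, so the numbers do not pair the samples; the replicate block ended only the call of Pdgfa at 15 weeks (adjusted p = 0.0652). In the exact sign-flip test of the block, the Angpt2 to Angpt1 ratio gave p = 0.0625 at 5 weeks, the smallest p it allows. Scaling by total reads gave 1083 higher and 626 lower genes at 15 weeks, against 598 and 1061 as deposited, and the median of all genes moved by 0.11 at 15 weeks and 0.18 in the difference with voom, and by 0.13 in the difference with total reads; Vegfa at 5 weeks and Apln at 15 weeks were called in both. Voom and quantile normalization were added after the data were seen. The planned edgeR and DESeq2 fits were not run, since the files hold FPKM, and neither was the planned test of histone marks at the members.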

Other observations

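The uncalled member Pgf was high in 5 libraries that were also high in Foxj1, the transcription factor of motile cilia, a gene named after its values were seen as one of the 3 closest to Pgf. In VEH_5w replicate 4, CORT_5w replicates 1 and 3 and CORT_15w replicates 1 and 2, Pgf stood at 2.58, 3.32, 3.20, 3.64 and 3.79 FPKM and Foxj1 at 9.43, 8.39, 11.1, 9.79 and 12.1 FPKM. In the other 15 libraries Pgf was at most 1.74 FPKM and Foxj1 at most 1.58 FPKM. These libraries include 4 of CORT and 1 of VEH, and 2 of them (CORT_5w replicate 3 and CORT_15w replicate 1) are among those with testis or epididymis transcripts.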
